A study of Mus musculus with 6 samples.

Results

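Glycolysis, pyruvate oxidation and the tricarboxylic acid (TCA) cycle were followed through the RNA levels of 39 enzymes and carriers in Lyl1 knockout and wild-type microglia, the resident macrophages of the brain. The members were chosen by gene symbol, and all 39 were found among the 48587 genes of the count table. They comprise 19 genes of glycolysis and of glucose and lactate transport, and 20 genes of the pyruvate dehydrogenase complex and the TCA cycle. The knockout group held 3 samples of microglia from Lyl1 knockout mice and the wild-type group 3 samples of microglia from wild-type mice. Both were of strain C57BL/6, at postnatal day 42, and no treatment is given for either. Lyl1 encodes a bHLH transcription factor known from haematopoiesis. Each sample was about 1000 cells isolated by FACS, and its polyadenylated RNA was amplified before sequencing. The labels give neither the sorting gate nor the way the Lyl1 allele was made, and they do not say that the samples came from separate animals, so the p-values measure only how far these samples spread, part of which may be technical. In sorted cells measured in bulk, fewer cells of a type and less RNA per cell cannot be told apart.

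Glycolysis splits glucose to pyruvate in the cytosol. Pyruvate is then either reduced to lactate by lactate dehydrogenase or carried into mitochondria, where the pyruvate dehydrogenase complex turns it into acetyl-CoA for the TCA cycle. Resting microglia are known to use oxidative metabolism, and activated macrophages and microglia are known for a shift towards glycolysis and lactate release.

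Libraries held between 12753945 and 27378614 counted reads. The microglia marker P2ry12, a purinergic receptor, was at 8910, 7189 and 7376 CPM (read counts scaled to a common library total, with TMM factors) in knockout samples, against 6619, 7100 and 6468 CPM in wild-type samples. Lyl1 had 205, 237 and 410 reads in knockout samples 1 to 3, against 683, 1399 and 839 in wild-type samples 1 to 3, a log2 fold change of -2.14 ± 0.98 (SE, edgeR quasi-likelihood unadjusted p = 0.0609). The number of genes with a read was 13085, 14923 and 15531 for the 3 knockout samples, against 13045, 12827 and 15652 for the 3 wild-type samples. Wild-type samples 1 and 2, with knockout sample 1, thus had the fewest genes.

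No member was called different between the genotypes after adjustment. Lyl1 itself, 4.41-fold lower in knockout samples without overlap, was not called either (edgeR adjusted p = 0.9999). A member that was not called can therefore not be read as unchanged. Of the 39 members 37 passed the filter on low counts, and edgeR's quasi-likelihood test with Benjamini-Hochberg adjustment over 10394 genes called 0 of them (adjusted p = 0.9999 for each), where it called 0% of all genes tested. DESeq2 called 0 members and 0.523% of 9937 genes, edgeR with no count filter 0 members and 0.0364% of 22005 genes, and limma-voom 0 members and 0% of genes. At an unadjusted p under 0.05 the test found 1 member, the malate dehydrogenase Mdh1, which was lower in knockout microglia. That is 2.7% of the members tested, beside 2.84% of all genes tested in either direction with 1.67% lower and 1.16% higher. In 4 members, Eno1, Idh3g, Sdhd and Mdh1, all knockout values lay below all wild-type values. They are 10.8% of the members tested, against 11.2% of all genes in either direction and 5.19% in that direction. No member had all its knockout values above all its wild-type values, where 5.97% of all genes did. Of the estimates, 19 were above 0 and 18 below.

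**Figure D1:**
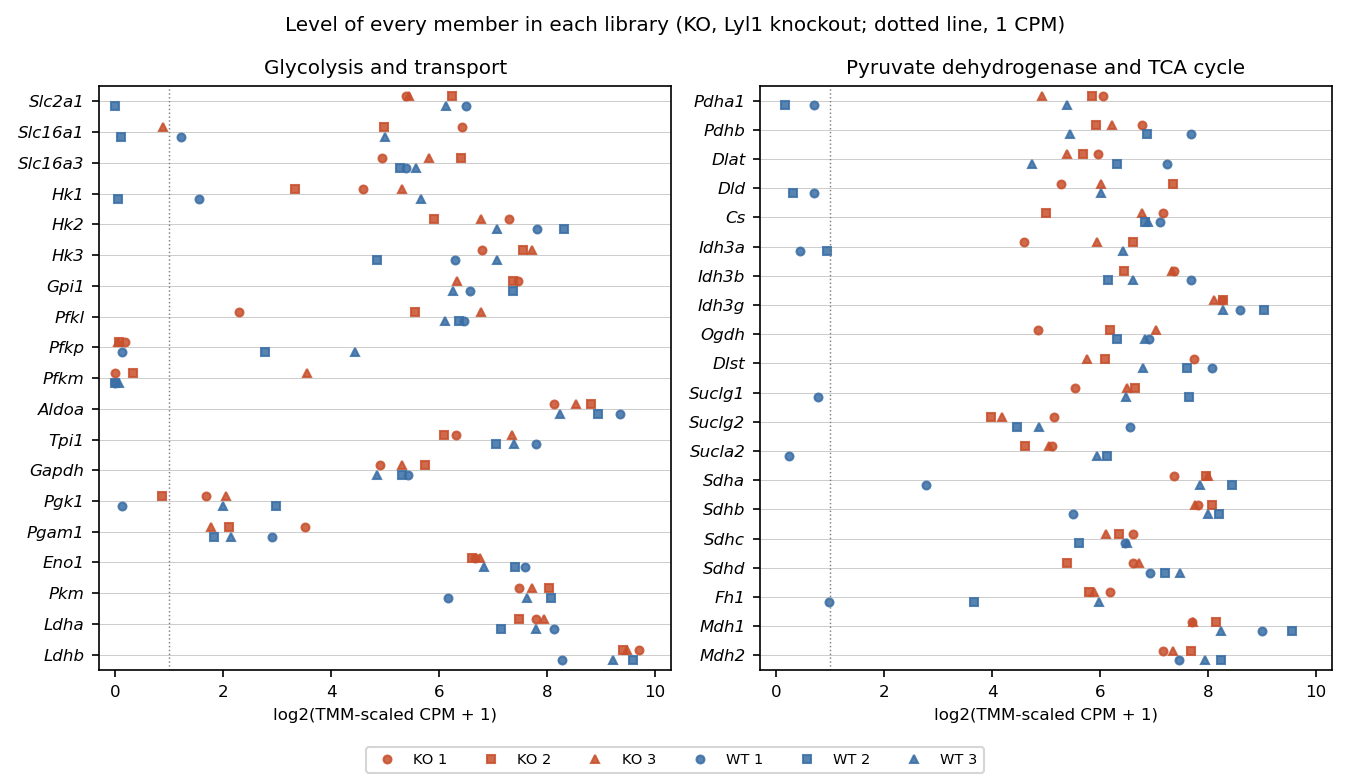
Level of each of the 39 members in each of the 6 libraries, as log2(TMM-scaled CPM + 1) on the horizontal axis, with knockout samples in orange and wild-type samples in blue and the sample number given by the symbol. Pdha1, Dld and Idh3a lie left of the dotted line at 1 CPM in wild-type samples 1 and 2 and right of it in the other 4 libraries.

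Levels per kb of exon spanned a wide range. The length used was that of all annotated exons of a gene merged, which can exceed the length of a single transcript. The order of the members and the isozyme shares per kb depend on that choice. Over both genotypes Ldhb stood first at 414 CPM per kb, followed by Mdh1 at 147, Aldoa at 145, Idh3g at 130, Sdhb at 97.2, Sdhd at 93 and Ldha at 64.6 CPM per kb. The order of Mdh1 and Aldoa differed between the genotypes, at 91.2 and 126 CPM per kb in knockout samples and 203 and 165 CPM per kb in wild-type samples. Gapdh, at 9.21 CPM per kb, and Pgk1, at 1.2 CPM per kb, stood low for enzymes that every cell uses. The merged exons of Gapdh span 4133 bases, against 1420 in its longest coding transcript, which lowers its level per kb. In the GENCODE M21 transcripts, 82.49% of the 50-base stretches of Gapdh also occur in other genes, as do 72.19% of those of Eno1, 67.96% of those of Pgk1 and 41.48% of those of Pgam1. Reads of these 4 members could be lost to or shared with such copies, so their levels are uncertain. For the remaining 35 members the share was lower, and for 20 it was 0, Mdh1 among them.

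The carriers open the pathway and varied widely between samples. Slc2a1, the glucose carrier GLUT1, was at 40.9, 74.9 and 42.3 CPM in knockout samples, against 89.2, 0 and 68.8 CPM in wild-type samples. The count of 0 in wild-type sample 2 allows up to 3 reads, or 0.119 CPM, a limit that covers counting error only. Slc16a1, the lactate carrier MCT1, was at 84.6, 30.7 and 0.835 CPM in knockout samples, against 1.32, 0.0795 and 31.1 CPM in wild-type samples, and the groups overlapped. It had the largest estimate among the glycolysis members, a log2 fold change of 1.84 ± 2.16 (SE, edgeR unadjusted p = 0.421), and in the 3 libraries with the most genes, knockout samples 2 and 3 and wild-type sample 3, the estimate was -0.96. Slc16a3, the lactate exporter MCT4, was more even, at 29.6, 83.9 and 55.0 CPM in knockout samples, against 40.9, 37.9 and 46.7 CPM in wild-type samples.

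Hexokinases trap glucose in the cell as glucose 6-phosphate. Hk2, an isoform that can bind mitochondria, was at 155, 59.2 and 108 CPM in knockout samples, against 224, 318 and 133 CPM in wild-type samples, a log2 fold change of -1.07 ± 0.50 (SE, edgeR unadjusted p = 0.0656). Hk3, the isoform known from myeloid cells, was at 111, 186 and 209 CPM in knockout samples, against 77, 28.0 and 133 CPM in wild-type samples, a log2 fold change of 1.09 ± 0.62 (SE, edgeR unadjusted p = 0.119). In both genes the groups overlapped, Hk2 through knockout sample 1 and Hk3 through wild-type sample 3. Hk2 had a DESeq2 unadjusted p of 0.0438, where 6.3% of all genes passed 0.05. Its edgeR unadjusted p was 0.044 without knockout sample 1 and 0.0395 without wild-type sample 3, where 2.37% and 10.5% passed. Hk3 had unadjusted p of 0.0425 (limma-voom) and 0.0414 (edgeR without wild-type sample 3), where 6.38% and 10.5% passed. No adjusted p of either gene was below 0.458 in the alternatives. Per kb, Hk3 made up 51.2%, 82.2% and 71.5% of the hexokinase reads in knockout samples and 35.6%, 12.5% and 56.2% in wild-type samples. Hk2 made up 44.2%, 16.1% and 22.8% in knockout samples and 64%, 87.5% and 34.7% in wild-type samples. Hk1, the widely expressed isoform, was at 22.9, 9.05 and 38.7 CPM in knockout samples, against 1.94, 0.0397 and 50 CPM in wild-type samples. Its share was 4.01% ± 2.06 in knockout samples and 3.17% ± 5.14 in wild-type samples (SD, n = 3 each; exact 2-sided permutation p = 0.8). Only the share of Hk1, the first named, was tested, and the shares of Hk2 and Hk3 were not.

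Promoter sequences are printed for the hexokinases Hk2 and Hk3, whose estimates ran in opposite directions, and for the lactate dehydrogenases Ldha and Ldhb, whose levels differ widely. Each window is the 250 bases before the gene's start in RefSeq on GRCm38.p6, read in the gene's own direction. Capitals mark ACGTG, the core of the element bound by hypoxia-inducible factors, or its reverse complement CACGT. Hk2 lies at chr6:82774455-82774704 on the minus strand, Hk3 at chr13:55021386-55021635 on the minus strand, Ldha at chr7:46845554-46845803 on the plus strand and Ldhb at chr6:142507958-142508207 on the minus strand. The window of Ldha lies inside the gene as GENCODE M21 gives it (chr7:46841475-46855627, plus strand), which starts further upstream than in RefSeq.
Hk2: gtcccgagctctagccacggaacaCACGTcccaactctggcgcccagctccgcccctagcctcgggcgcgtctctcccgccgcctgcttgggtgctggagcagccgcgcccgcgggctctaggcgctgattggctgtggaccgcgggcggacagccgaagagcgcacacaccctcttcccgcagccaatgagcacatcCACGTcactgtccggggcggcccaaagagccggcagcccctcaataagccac
Hk3: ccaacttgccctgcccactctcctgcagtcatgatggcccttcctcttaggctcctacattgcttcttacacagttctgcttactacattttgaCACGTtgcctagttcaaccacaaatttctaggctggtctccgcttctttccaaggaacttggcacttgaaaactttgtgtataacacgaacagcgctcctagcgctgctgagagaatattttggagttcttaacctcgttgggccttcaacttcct
Ldha: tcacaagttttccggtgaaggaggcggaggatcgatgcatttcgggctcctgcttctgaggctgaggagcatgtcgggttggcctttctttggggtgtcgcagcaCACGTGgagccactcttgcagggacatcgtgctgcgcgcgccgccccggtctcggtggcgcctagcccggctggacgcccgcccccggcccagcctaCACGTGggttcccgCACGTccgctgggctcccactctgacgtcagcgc
Ldhb: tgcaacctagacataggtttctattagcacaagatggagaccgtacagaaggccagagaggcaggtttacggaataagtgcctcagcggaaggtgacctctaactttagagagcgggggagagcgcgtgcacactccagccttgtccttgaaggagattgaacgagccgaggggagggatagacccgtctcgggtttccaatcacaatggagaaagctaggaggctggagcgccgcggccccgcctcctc
The motif occurred 2 times in the Hk2 window, 1 time in that of Hk3, 5 times in that of Ldha and 0 times in that of Ldhb, counting both strands, on which a CACGTG counts once each. RefSeq windows were matched for 37 of the 39 members, all but Idh3a and Sdhc. Where a gene had several starts, the start nearest that in GENCODE M21 was taken for members. The first entry was taken for the windows of all genes, so the choice was not alike. Bases just after the start were found in a transcript of the same gene for 29 of the 37. The window of Sucla2, from chr14:73552536, also lies inside its gene (chr14:73525319-73596142, plus strand). ACGTG on either strand was found in 9 of 19 glycolysis windows (47.4%) and 5 of 18 pyruvate dehydrogenase and TCA windows (27.8%), against 16.6% of the 27025 windows of all genes. CAGATG, an E-box of the class known for the related factor TAL1, was found on either strand in 4 glycolysis windows (21.1%) and 3 TCA windows (16.7%), against 14.5% of all. TGCGCA, the core of the NRF1 element, which reads the same on both strands, was found in 4 (21.1%) and 2 (11.1%), against 6.7%. Median GC content was 59.2% in the glycolysis windows and 61.4% in the TCA windows, against 52% in all. Matches of different motifs may overlap, and they are a description of letters only.

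Phosphofructokinase, the committed step of glycolysis, was carried mainly by the liver-type subunit Pfkl. It was at 3.88, 45.7 and 108 CPM in knockout samples, against 87.5, 81.2 and 68.1 CPM in wild-type samples, lowest in knockout sample 1. The other 2 subunits failed the count filter. Pfkp had 3, 1 and 1 reads in knockout samples and 1, 146 and 433 reads in wild-type samples. Without wild-type sample 1 Pfkp passed the filter, with a log2 fold change of -7.4 (edgeR unadjusted p = 0.0193, adjusted p = 0.999). In that fit 2.78% of all genes had an unadjusted p under 0.05. Pfkm, the muscle-type subunit, had 0, 5 and 307 reads in knockout samples and 0, 0 and 1 reads in wild-type samples. In each of these subunits 1 or 2 libraries held nearly all the reads. Per kb, Pfkl made up 93.6% ± 8.71 of the reads of the 3 subunits in knockout samples and 94.4% ± 6.85 in wild-type samples (SD, n = 3 each; exact 2-sided permutation p = 0.8).

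For the middle and lower steps of glycolysis no test passed an unadjusted p of 0.05. Gpi1 and Tpi1, the isomerases of hexose and triose phosphates, had log2 fold changes of 0.33 ± 0.51 and -0.76 ± 0.48 (SE). Aldoa, the aldolase that splits fructose 1,6-bisphosphate, was at 278, 451 and 369 CPM in knockout samples, against 653, 489 and 299 CPM in wild-type samples, and the groups overlapped. Gapdh and Pgk1, the first steps after the split, were at 39.9 ± 11.7 and 2.06 ± 1.18 CPM in knockout samples, against 36.3 ± 7.54 and 3.31 ± 3.38 CPM in wild-type samples (SD, n = 3 each). Pgam1, a mutase, was at 5.38 ± 4.37 CPM in knockout samples and 4.14 ± 2.04 CPM in wild-type samples. Eno1, the enolase (chr4:150236721-150248879, GRCm38, plus strand), was at 101, 96.4 and 107 CPM in knockout samples, against 191, 168 and 113 CPM in wild-type samples. All 3 knockout values lay below the wild-type values, with a log2 fold change of -0.64 ± 0.40 (SE, edgeR unadjusted p = 0.149). Pkm, pyruvate kinase, was at 217 ± 43.3 CPM in knockout samples and 178 ± 99.6 CPM in wild-type samples (SD, n = 3 each).

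Lactate dehydrogenase reads came mostly from the heart-type subunit Ldhb in every library, whose tetramers are known to favour oxidation of lactate to pyruvate. Ldhb (chr6:142490249-142507957, GRCm38, minus strand) was at 837, 674 and 713 CPM in knockout samples, against 309, 774 and 593 CPM in wild-type samples, low in wild-type sample 1. Ldha, the muscle-type subunit, was at 221, 176 and 245 CPM in knockout samples, against 279, 140 and 222 CPM in wild-type samples, with overlapping groups. Per kb, Ldha made up 11.1%, 11% and 14% of the reads of the pair in knockout samples and 30%, 7.89% and 15.1% in wild-type samples. That is 12% ± 1.69 in knockout samples against 17.6% ± 11.3 in wild-type samples (SD, n = 3 each; exact 2-sided permutation p = 0.6). 5 shares were tested in this way, those of Hk1, Pfkl, Ldha, Suclg2 and Slc16a1, with the smallest p that 3 against 3 samples allow being 0.1 and a Benjamini-Hochberg adjusted p of 1 for each (exact permutation tests).

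**Figure D2:**
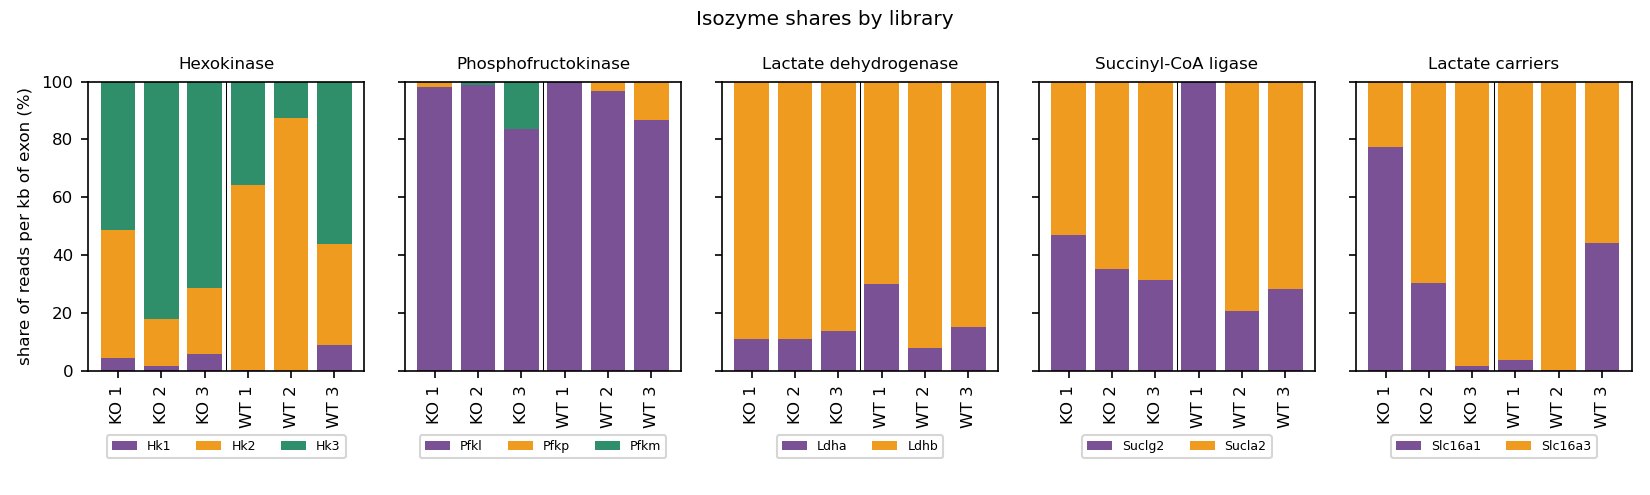
Share of the reads per kb within each group of isozymes in each library, as a percentage, with knockout samples left of wild-type samples. Ldhb takes 70% to 92.1% of the lactate dehydrogenase reads per kb in all 6 libraries, while the Hk2 and Hk3 shares and the Slc16a1 and Slc16a3 shares vary between libraries of the same genotype.

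Pyruvate dehydrogenase turns pyruvate into acetyl-CoA. Pdha1, the catalytic alpha subunit of the first enzyme, was at 65.7, 56.6 and 29.6 CPM in knockout samples, against 0.617, 0.119 and 41.2 CPM in wild-type samples. Dld, the dihydrolipoamide dehydrogenase shared with the oxoglutarate complex, was at 38.0, 163 and 64.2 CPM in knockout samples, against 0.617, 0.238 and 64.2 CPM in wild-type samples. Its log2 fold change of 2.03 ± 1.83 (SE, edgeR unadjusted p = 0.301) was the largest among the TCA members. The low values of both genes were in wild-type samples 1 and 2. The other subunits did not share this gap: Pdhb was at 80.8 ± 25.4 CPM in knockout samples and 121 ± 81.5 CPM in wild-type samples, and Dlat at 50.8 ± 10.2 and 85.1 ± 62.9 CPM in the same order (SD, n = 3 each).

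The citrate to oxoglutarate steps held a similar case. Idh3a, the catalytic subunit of NAD-dependent isocitrate dehydrogenase, was at 23.3, 96.7 and 60.4 CPM in knockout samples, against 0.353, 0.914 and 85.6 CPM in wild-type samples. Idh3g, a regulatory subunit of the same enzyme (chrX:73778963-73786897, GRCm38, minus strand), was at 305, 309 and 274 CPM in knockout samples, against 386, 524 and 310 CPM in wild-type samples. All knockout values of Idh3g lay below its wild-type values, by 1.37-fold on average, with a log2 fold change of -0.46 ± 0.27 (SE, edgeR unadjusted p = 0.133). Idh3b had a log2 fold change of 0.15 ± 0.54 and Cs, citrate synthase, one of -0.39 ± 0.60 (SE).

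Oxoglutarate dehydrogenase and succinyl-CoA ligase followed. Ogdh and Dlst, the first and second enzymes of the oxoglutarate complex, had log2 fold changes of -0.44 ± 0.65 and -0.78 ± 0.63 (SE). Suclg1, the subunit common to both ligases, was at 45.8, 99.7 and 89.5 CPM in knockout samples, against 0.705, 199 and 88.4 CPM in wild-type samples. Suclg2, of the GTP-forming ligase, was at 34.5, 14.8 and 17.2 CPM in knockout samples, against 93.7, 21.1 and 28.2 CPM in wild-type samples. Sucla2, of the ATP-forming ligase, was at 33.7, 23.3 and 32.5 CPM in knockout samples, against 0.176, 68.9 and 60.9 CPM in wild-type samples. Wild-type sample 1 thus had 8 reads of Suclg1 and 2 of Sucla2 with 1063 of Suclg2, and the share of Suclg2 per kb in that library was 99.8%, against 20.9% to 46.9% in the other 5.

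Succinate dehydrogenase is both a TCA enzyme and complex II of the respiratory chain. Sdhb, its iron-sulfur subunit, was at 224, 269 and 217 CPM in knockout samples, against 44.3, 294 and 257 CPM in wild-type samples. Sdha, the flavoprotein subunit, was at 165, 249 and 257 CPM in knockout samples, against 5.82, 350 and 231 CPM in wild-type samples, again lowest in wild-type sample 1. Sdhd, a membrane anchor (chr9:50596357-50603812, GRCm38, minus strand), was at 96.5, 40.7 and 105 CPM in knockout samples, against 121, 147 and 177 CPM in wild-type samples. Its groups did not overlap, with a log2 fold change of -0.88 ± 0.50 (SE, edgeR unadjusted p = 0.122), whereas Sdhc, the other anchor, had one of 0.13 ± 0.55 (SE).

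Mdh1 was the member with the smallest p. It encodes the cytosolic malate dehydrogenase, which works with the mitochondrial enzyme Mdh2 in the malate-aspartate shuttle that carries reducing equivalents into mitochondria. Mdh1 (ENSMUSG00000020321.15, chr11:21556787-21572367, GRCm38, minus strand) was at 207, 284 and 212 CPM in knockout samples, against 515, 750 and 302 CPM in wild-type samples. The groups did not overlap, wild-type sample 3 lying closest to the knockout samples. The means were 234 ± 43 CPM and 522 ± 224 CPM in the same order (SD, n = 3 each), 2.23-fold lower in knockout samples. The log2 fold change was -1.16 ± 0.36 (SE; edgeR unadjusted p = 0.0137, adjusted p = 0.9999). Without wild-type sample 2 it was -0.78 (edgeR unadjusted p = 0.0573), with the number of genes detected as a covariate -0.91 (edgeR unadjusted p = 0.0508), and in the 3 libraries with the most genes -0.28 (edgeR unadjusted p = 0.488). That last fit holds wild-type sample 3 alone, which is assumed to vary like the knockout samples. Mdh2 was at 142, 204 and 162 CPM in knockout samples, against 175, 304 and 245 CPM in wild-type samples, with a log2 fold change of -0.51 ± 0.34 (SE). Of the exons of Mdh1, 2.03% overlap those of Wdpcp on the opposite strand, and the library kit does not mark strand. Fh1, fumarase, was at 71.4, 54.6 and 58.0 CPM in knockout samples, against 0.97, 11.7 and 62.2 CPM in wild-type samples.

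**Figure D3:**
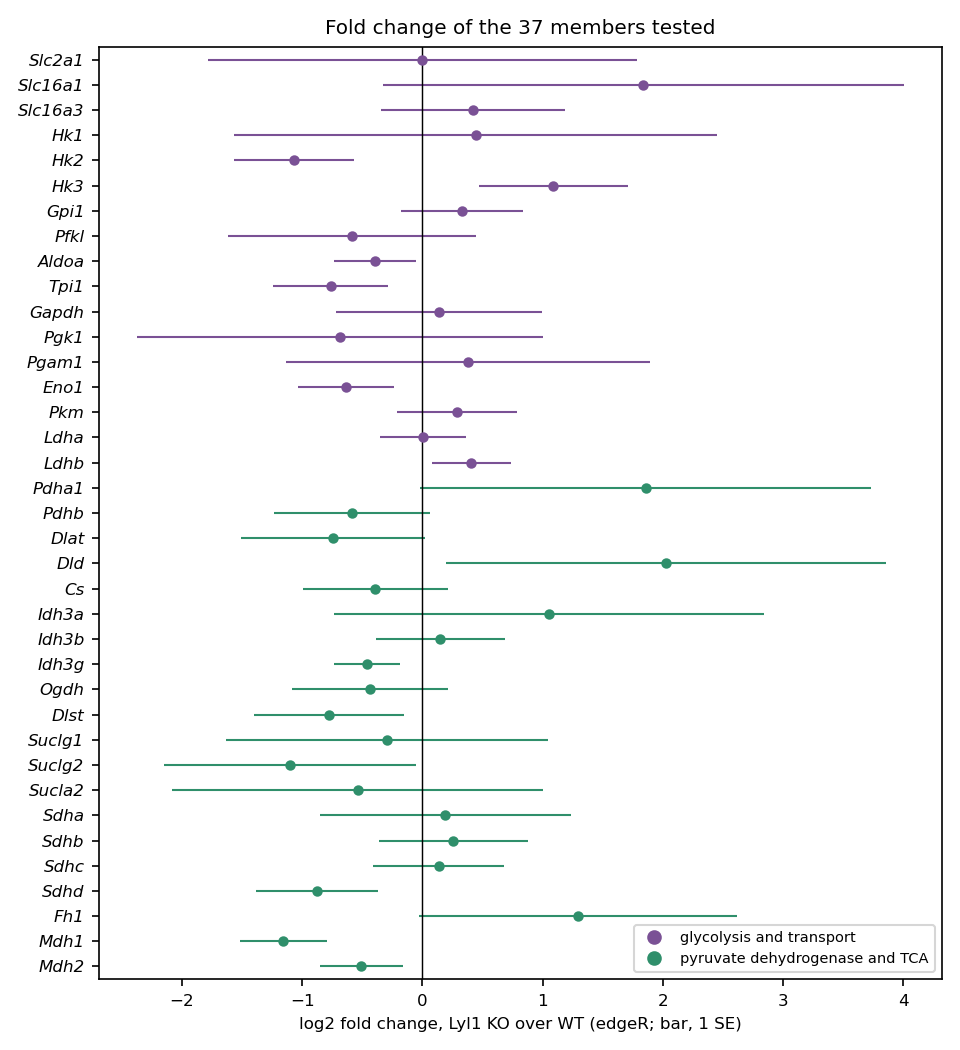
Log2 fold change of each tested member, knockout over wild type, with its standard error from the edgeR fit. Mdh1, at -1.16, is the member whose unadjusted p was under 0.05, and the widest bars belong to members with values under 1 CPM in some library, such as Slc16a1 and Hk1.

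Levels of markers of other cell types are set beside those of Mdh1. The 7 astrocyte markers summed to 170 to 258 CPM in knockout samples and 176 to 410 CPM in wild-type samples, nearly all of it Slc1a3, and Gfap and Aldh1l1 were at 0 reads in all libraries. Slc1a3 was at 258, 229 and 170 CPM in knockout samples, against 408, 402 and 176 CPM in wild-type samples (log2 fold change -0.59 ± 0.39, SE, edgeR unadjusted p = 0.172). Like Mdh1 it was high in wild-type samples 1 and 2 and lower in wild-type sample 3. The other 6 astrocyte markers each had a mean under 1 CPM, so this pattern is that of Slc1a3 and not of the list. The 9 neuron markers summed to 0.313 to 7.84 CPM in knockout samples and 0.0477 to 0.882 CPM in wild-type samples, with Snap25, Nrgn and Gad1 at 0 reads in all. Oligodendrocyte markers summed to 109 to 215 CPM in knockout samples and 47.4 to 379 CPM in wild-type samples, led by Cnp, and Mobp and Olig1 were at 0. Endothelial markers gave 27.2 to 61.6 CPM in knockout samples and 26.1 to 154 CPM in wild-type samples, led by Pecam1, with Cldn5 at 0. Erythroid markers gave 0.243 to 227 CPM in knockout samples and 0.159 to 1.23 CPM in wild-type samples. Of these, Hbb-bs was at 127, 38.2 and 0.0348 CPM in knockout samples, against 0.705, 0.0397 and 0.0954 CPM in wild-type samples (edgeR unadjusted p = 0.0234, adjusted p = 0.9999), high in knockout samples 1 and 2. Markers of border macrophages and monocytes gave 0.508 to 13.6 CPM and 0.556 to 96 CPM in the same order. The ranges of each of these 6 lists overlapped between the genotypes, and the part of these cells in the results was not tested.

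The TCA members with hardly any reads were all in 2 of the wild-type libraries. A level under 1 CPM was found for 6 of the 20 pyruvate dehydrogenase and TCA members in wild-type sample 1 (30%), for 3 in wild-type sample 2 (15%) and for 0 in wild-type sample 3 and in knockout samples 1 to 3. The 6 in wild-type sample 1 were Pdha1, Dld, Idh3a, Suclg1, Sucla2 and Fh1, and the 3 in wild-type sample 2 were Pdha1, Dld and Idh3a. Among all tested genes the shares under 1 CPM were 17.4%, 16.8% and 5.88% in knockout samples and 29.6%, 29.6% and 6.47% in wild-type samples. Of the 19 glycolysis members, 2, 3 and 2 were under 1 CPM in knockout samples and 3, 4 and 1 in wild-type samples. Over all 6 libraries, 14 TCA members and 13 glycolysis members stayed above 1 CPM throughout. Without wild-type sample 3 the log2 fold changes were 7.71 for Dld, 7.13 for Pdha1 and 6.55 for Idh3a (edgeR unadjusted p = 0.0017, 0.00595 and 0.00544, adjusted p = 0.392 for each), in a fit in which 10.5% of all genes had an unadjusted p under 0.05. In the 3 libraries with the most genes they were 0.84, 0.08 and -0.11. With the number of genes detected as a covariate Dld had a log2 fold change of 4.1 (edgeR unadjusted p = 0.0316), where 1.97% of all genes passed 0.05. With limma-voom Pdha1 had one of 4.87 (limma-voom unadjusted p = 0.0361, adjusted p = 0.722), where 6.38% of all genes passed. Idh3a had an unadjusted p under 0.05 in neither of these fits.

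**Figure D4:**
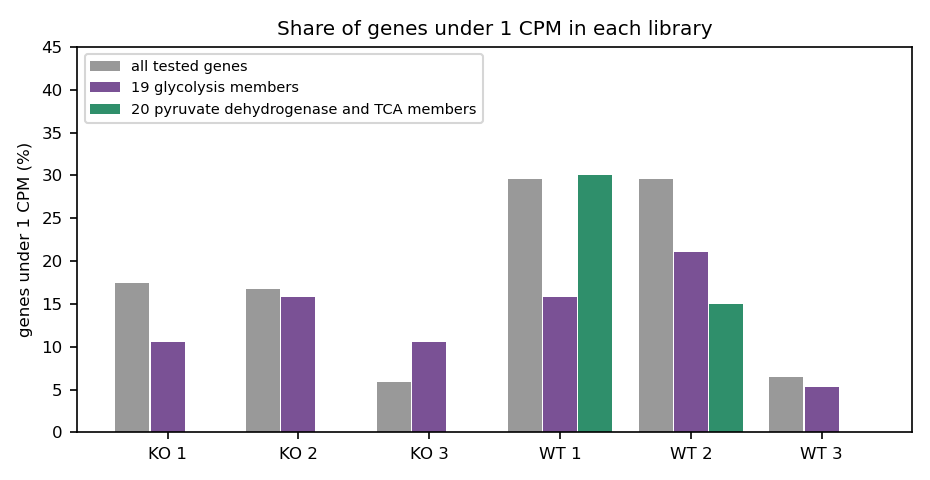
Share of genes under 1 CPM in each library, in percent, for all tested genes, the 19 glycolysis members and the 20 pyruvate dehydrogenase and TCA members, with knockout samples on the left. The TCA members reach 30% in wild-type sample 1 and 15% in wild-type sample 2, with 0% in the other 4 libraries.

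By the median over members, glycolysis and TCA levels were set against each other in each library, and the genotypes overlapped. The median log2 fold change was 0.14 over the 17 tested glycolysis members, of which 11 had estimates above 0 and 6 below, and -0.41 over the 20 pyruvate dehydrogenase and TCA members, with 8 above and 12 below. The median over all tested genes was -0.03, with 5063 above and 5331 below. For the genes that averaged 100 CPM or more, the medians were 0.00 for glycolysis, -0.48 for the TCA members and -0.15 for all genes. With limma-voom the TCA median was 0.04, where that of all genes was 0.20. Per library, the median level of the glycolysis members relative to the wild-type mean, less that of the TCA members, was -0.36, 0.59 and 0.12 (log2) in knockout samples and 0.24, -0.07 and -0.10 in wild-type samples.

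The summed levels, which the most abundant members set, read differently. Glycolysis members summed to 2354, 2439 and 2501 CPM in knockout samples and 2388, 2652 and 2251 CPM in wild-type samples, 2431 ± 73.6 against 2430 ± 204 (SD, n = 3 each). Pyruvate dehydrogenase and TCA members summed to 2269, 2312 and 2213 CPM in knockout samples, against 2516, 3369 and 2548 CPM in wild-type samples, 2264 ± 49.7 against 2811 ± 484 (SD, n = 3 each). The ratio of glycolysis to TCA sums was 1.04, 1.06 and 1.13 in knockout samples, against 0.949, 0.787 and 0.884 in wild-type samples, and these values did not overlap. Mdh1 made up 9.14%, 12.3% and 9.56% of the TCA sum in knockout samples and 20.5%, 22.2% and 11.9% in wild-type samples. Without Mdh1 the ratio was 1.14, 1.20 and 1.25 in knockout samples and 1.19, 1.01 and 1.00 in wild-type samples, and the groups overlapped. Ldhb made up 35.5%, 27.7% and 28.5% of the glycolysis sum in knockout samples and 12.9%, 29.2% and 26.3% in wild-type samples. Without Ldhb the ratio was 0.747 ± 0.0711 in knockout samples and 0.678 ± 0.136 in wild-type samples (SD, n = 3 each).

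**Figure D5:**
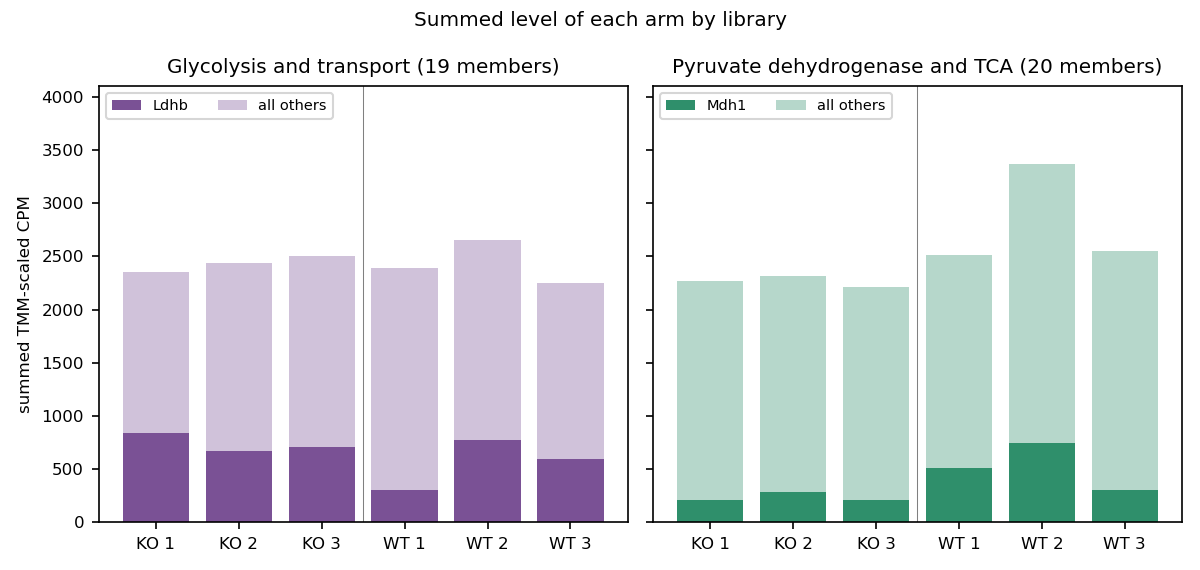
Summed TMM-scaled CPM of the glycolysis members (left) and of the pyruvate dehydrogenase and TCA members (right) in each library, with the part of Ldhb and of Mdh1 in the darker colour and knockout samples left of wild-type samples. The glycolysis sums lie between 2251 and 2652 CPM in all 6 libraries, and the TCA sum is highest in wild-type sample 2, at 3369 CPM.

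Other genes of the pathways were taken from 6 lists with 96 genes, of which 65 were tested. By edgeR 0 were called after adjustment, and 1 higher and 1 lower gene had an unadjusted p under 0.05 (3.08% of those tested). The median log2 fold change over the 65 genes was -0.18, with 31 estimates above 0 and 34 below. Aco1, cytosolic aconitase, which also acts as the iron-regulatory protein IRP1, was higher, at 66.9, 127 and 28.7 CPM in knockout samples, against 1.85, 16 and 2.00 CPM in wild-type samples (log2 fold change 3.49 ± 1.30, SE, edgeR unadjusted p = 0.0287). Minpp1, an inositol polyphosphate phosphatase that also acts on 2,3-bisphosphoglycerate, was lower, at 26.6, 43.2 and 60.6 CPM in knockout samples, against 386, 275 and 20.2 CPM in wild-type samples (log2 fold change -2.39 ± 0.94, SE, edgeR unadjusted p = 0.0357). Its low wild-type value was in sample 3, so the groups overlapped. Among the carriers, Slc2a5, the fructose carrier GLUT5 known as a marker of microglia, was the most abundant at 919 ± 85.7 CPM in knockout samples and 1140 ± 345 CPM in wild-type samples (SD, n = 3 each), and it also had the smallest p of its list (edgeR unadjusted p = 0.253).

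Of the regulators of pyruvate entry, 13 of 19 were tested. Pdk1, a kinase that inhibits pyruvate dehydrogenase, was the most abundant at 138 ± 49.2 CPM in knockout samples and 162 ± 36.7 CPM in wild-type samples (SD, n = 3 each), and Pdk4 had 0 reads in all libraries. Pdpr, a regulatory subunit of the pyruvate dehydrogenase phosphatase, had the smallest p of its list (edgeR unadjusted p = 0.173). It was at 15.7, 24.8 and 0.661 CPM in knockout samples, against 0.265, 2.86 and 0 CPM in wild-type samples. Of the other TCA and branch enzymes 17 of 19 were tested. Slc25a11, the mitochondrial oxoglutarate carrier of the malate-aspartate shuttle, was the most abundant at 257 ± 52.2 CPM in knockout samples and 320 ± 147 CPM in wild-type samples (SD, n = 3 each). Acod1, the itaconate-forming enzyme that activated macrophages switch on, had 0 reads in all 6 libraries, which allows up to 0.104 to 0.264 CPM.

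All 7 enzymes of the pentose phosphate pathway were tested. Of these, 3 had non-overlapping groups with higher knockout values and 1 with lower, beside 5.97% and 5.19% of all genes. That share, 57.1%, was the highest of the 6 lists. Over the 65 tested genes of all lists, 8 were higher and 2 lower without overlap, 15.4% against 11.2% of all genes. G6pdx, the rate-limiting first enzyme, was at 87, 106 and 89.3 CPM in knockout samples, against 206, 151 and 127 CPM in wild-type samples (log2 fold change -0.78 ± 0.40, SE, edgeR unadjusted p = 0.0876). Taldo1, transaldolase, the most abundant, was at 205 ± 76 CPM in knockout samples and 305 ± 88.1 CPM in wild-type samples (SD, n = 3 each). Pgls, Pgd and Rpe, the next enzymes of the pathway, had the higher values, chosen here after those values were seen. Their log2 fold changes were 0.98 ± 0.72, 0.46 ± 0.42 and 3.18 ± 1.90 (SE). Of the hypoxia-inducible factors and their known targets, 14 of 21 were tested. Egln1, the oxygen-sensing prolyl hydroxylase, had the smallest p of that list (edgeR unadjusted p = 0.186) at 42.8, 45.3 and 21.9 CPM in knockout samples, against 0.441, 0.159 and 15.9 CPM in wild-type samples. P4ha1, a collagen prolyl hydroxylase, was the most abundant at 319 ± 92.8 CPM in knockout samples and 274 ± 90 CPM in wild-type samples (SD, n = 3 each).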

How the data were processed

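RNA from 3 Lyl1 knockout and 3 wild-type samples of sorted microglia was sequenced, per the labels' protocols, with a SMARTer Ultra Low kit from 0.3 to 1.0 ng of RNA, 14 or 15 PCR cycles, Nextera XT libraries from 150 pg of cDNA and 50 single-read cycles. Neither strand nor molecule is marked by the kit, so PCR copies are counted separately and limits cover counting error only. The authors deposited raw, unnormalized read counts for each gene symbol. Per the submitters' processing notes, the build was GRCm38 and the tools were featureCounts 1.5.1, Subread, STAR 2.5.2b, limma 3.28.21 and CASAVA 1.8.2. Annotation and strand setting of the counting: not given in the sources used here.

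From the 48679 entries, 92 ERCC spike-ins were left out. In R 4.3.3, edgeR 4.0.16 (filterByExpr with a minimum count of 10 and total of 15, TMM scaling, genotype as the sole term, quasi-likelihood F test, 2-sided) was fitted to 10394 genes, with p adjusted after Benjamini-Hochberg and called under 0.05. DESeq2 1.42.0 and limma-voom 3.58.1 were alternatives. Levels are TMM-scaled CPM, and a pseudocount of 1 CPM was used for log2 levels per library. Isozyme shares were compared by exact 2-sided permutation tests. Exon lengths, positions and shared 50-base stretches came from GENCODE M21, with all annotated exons of a gene merged for its length. The common biological coefficient of variation was 1.27.

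Members and lists were chosen with earlier results of these data known. Values in every sample are given for members with an unadjusted p under 0.05, without overlap between genotypes, in an isozyme group, among the 3 highest per kb of each arm, or with the smallest or largest fold change of each arm. From each pathway list the gene with the smallest p and the most abundant gene were named. Other members with values in every sample were chosen after their values were seen. Of the 8 listed microglia markers, 1 is not reported here, and P2ry12 was chosen from the others after their values were seen.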

Additional observations from a re-analysis of the deposited data

How the results depend on the processing

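No member passed an adjusted p of 0.05 under any of the alternatives run. Over all genes edgeR called 0, with 295 at an unadjusted p under 0.05. DESeq2 called 52 of 9937 genes and edgeR without a count filter 8 of 22005, while limma-voom called 0 (663 at an unadjusted p under 0.05). Deviations of same-numbered samples correlated by 0.0144, -0.0029 and 0.0327, beside -0.0367 to 0.0138 for samples of unlike number. Such values from 3 samples a group cannot decide whether the replicate numbers pair the samples. With the replicate number as a block 0 genes were called, 171 had an unadjusted p under 0.05 and Mdh1 had a log2 fold change of -1.08. Upper-quartile scaling moved the median of all genes by over 0.1, from -0.03 to 0.09, with the glycolysis median at 0.31 and the TCA median at -0.27. Without Ldhb the ratio of sums differed by 0.0686 in place of 0.201. Mdh1 kept its sign in every fit, between -1.42 and -0.28. Of the 37 members, 21 changed sign in at least 1 alternative, all with main estimates short of the threshold, and the cause was not tested. The log2 fold changes that changed sign were as follows. With RLE size factors they were -0.072 for Slc2a1 and -0.074 for Ldha, and DESeq2 gave -0.072 and -0.074. With genes detected as a covariate they were -0.13 for Slc2a1 and -0.021 for Ldha. With limma-voom they were 0.34 for Pgk1, 0.46 for Suclg1 and 0.95 for Sucla2, and with the replicate block 0.24, 1.01 and 0.33 for the same genes. In the 3 libraries with the most genes, chosen after seeing the data, they were -0.22 for Slc2a1, -0.96 for Slc16a1, -1.07 for Hk1, 0.18 for Pfkl, 0.46 for Aldoa, -0.25 for Pgam1, -0.071 for Ldha, 0.66 for Pdhb, 0.84 for Dlat, -0.11 for Idh3a, 0.11 for Suclg1, -0.069 for Sdhb, -0.25 for Sdhc and -0.14 for Fh1. By raw reads in place of reads per kb, the Pfkl share differed by 5.71 points. With 1 library left out at a time, log2 fold changes that changed sign ranged from -0.56 to 0.63 for Slc2a1, -0.13 to 4.60 for Hk1, -0.084 to 0.32 for Gapdh, -1.24 to 0.42 for Pgk1, -0.53 to 0.86 for Pgam1, -0.085 to 0.72 for Pkm, -0.20 to 0.25 for Ldha, -0.98 to 0.038 for Pdhb, -0.82 to 0.048 for Cs, -0.11 to 0.73 for Idh3b, -0.86 to 0.83 for Suclg1, -0.37 to 0.93 for Sdha, -0.20 to 0.67 for Sdhb and -0.077 to 0.29 for Sdhc, and share differences in points from -0.738 to 3.81 for Hk1, -4.7 to 4.16 for Pfkl, -10.5 to 0.573 for Ldha and -26.3 to 13.2 for Suclg2. At a depth where 3 reads are 0.104 to 0.264 CPM small differences in members with few reads were not detectable. The spread between samples was also wide, with a common biological coefficient of variation of 1.27 over the genes tested. What limited the calls was not tested. Larger differences in abundant members were not called either. Mdh1, at a mean of 234 CPM in knockout samples and 522 CPM in wild-type samples, had an adjusted p of 0.9999 (edgeR).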
